A study of Rattus norvegicus with 9 samples.

Results

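The miR-30 family is represented here by 8 of the 726 miRNA rows of the deposited table, chosen by name: the 5p arms rno-miR-30a-5p, rno-miR-30b-5p, rno-miR-30c-5p, rno-miR-30d-5p and rno-miR-30e-5p, and the 3p arms rno-miR-30a-3p, rno-miR-30c-2-3p and rno-miR-30e-3p (the prefix rno, for rat, is left out from here on). Small RNA had been sequenced from cartilage progenitor cells, wild-type primary cultures from rat condylar cartilage, in 3 groups of 3 libraries. P3 cells had been cultured to passage 3 and are the control, P9 cells had been cultured to passage 9 and stand for replicative senescence, and FFSS cells are passage 3 cells under flow fluid shear stress, the drag of moving medium. For the flow, strength and duration were not given in the sources used here. No label ties a replicate to its own culture or animal, so the p-values speak only of the spread among these libraries, and that spread may be technical.

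A miRNA is cut from a hairpin precursor, and either strand of the hairpin, the 5p or the 3p arm, can be loaded into an Argonaute protein. The loaded arm finds its messenger RNA targets mainly through its seed, bases 2 to 8. miR-30 is a broadly expressed family of mesenchymal and epithelial cells, known for repressing Runx2, the master transcription factor of bone formation, the matrix gene Ctgf and the autophagy gene Becn1.

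Of the 8 members, 5 had a mature sequence in the RefSeq set used (build GRCr8), which is not the build named by the submitters, Rnor_6.0. They are shown with the seed in capitals, 5′ to 3′, because the seed divides the family by arm and the bases after it tell the paralogs apart.
miR-30a-5p (chr9:33233946-33233967, + strand): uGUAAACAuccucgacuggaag
miR-30e-5p (chr5:139637504-139637525, - strand): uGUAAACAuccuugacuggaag
miR-30c-5p (chr9:33253695-33253717, + strand, and chr5:139634505-139634527, - strand): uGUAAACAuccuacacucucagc
miR-30a-3p (chr9:33233987-33234008, + strand): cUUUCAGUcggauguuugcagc
miR-30c-2-3p (chr9:33253735-33253756, + strand): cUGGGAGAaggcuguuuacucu
The 5p arms shown share the seed GUAAACA, while the 3p arms of Mir30a and Mir30c2 have the unrelated seeds UUUCAGU and UGGGAGA. Counting from 1 at the 5′ end, miR-30e-5p differs from miR-30a-5p at 1 of 22 positions, C13U. The labels do not state how the counting program divided reads between such near-identical rows.

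The hairpins lie in neighbouring pairs. Mir30a and Mir30c2 lie on chromosome 9 with 19670 bases between them, and Mir30e and Mir30c1 on chromosome 5 with 2906 bases between them, inside the span of Nfyc, which encodes a subunit of the NF-Y transcription factor. Mir30b and Mir30d are adjacent genes as well. The hairpins of the chromosome 9 pair are shown, mature arms in capitals, since most of the differences below concern their arms.
Mir30a (chr9:33233941-33234011, + strand): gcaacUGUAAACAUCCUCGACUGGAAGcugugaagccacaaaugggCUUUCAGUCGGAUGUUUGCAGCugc
Mir30c2 (chr9:33253682-33253765, + strand): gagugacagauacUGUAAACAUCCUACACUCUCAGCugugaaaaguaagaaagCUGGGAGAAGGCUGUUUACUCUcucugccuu
The mature sequence of miR-30c-5p is identical in Mir30c2 and Mir30c1, so its reads cannot be assigned to either chromosome, whereas the 3p arms of these hairpins differ at 3 positions. Neighbours are therefore compared through rows that belong to 1 hairpin, except where a ratio to miR-30c-5p is given.

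The libraries held 2878910 to 8862560 miRNA reads, with FFSS replicates 1 and 3 the shallowest, and the lowest count of a member was 97 reads. Levels are given as CPM, the read count scaled to a fixed library total. All 4 markers of cartilage, both arms of miR-140 and of miR-455, were read in every group, with summed levels of 4150 to 7370 CPM in P3, 2590 to 3847 CPM in P9 and 6077 to 7202 CPM in FFSS. P9 replicate 3 correlated at 0.959 and 0.966 with the other P9 libraries, which reached 0.994 with each other, and was closest to P3 replicate 2 (0.972, log CPM across miRNAs). In these bulk samples fewer cells of a type and less RNA per cell cannot be told apart.

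The 5p arms together took 0.681% to 0.883% of the reads in P3 libraries, 0.698% to 0.878% in P9 and 0.863% to 1.06% in FFSS, and these ranges overlapped. Their sum in FFSS was 1.18-fold that in P3 (exact permutation test, two-sided, p = 0.30; 3 libraries against 3 cannot go below 0.10). In P9 it was 0.986-fold (exact p = 0.80).

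The 3p arms were the minor product and took 3.07% to 6.35% of the reads of the 8 members. Their sum was 279.7 to 349 CPM in P3, 341 to 444 CPM in P9 and 539 to 682 CPM in FFSS. Every FFSS library lay above every P3 and P9 library, a 1.94-fold difference from P3 (exact p = 0.10, the smallest possible) and 1.60-fold from P9 (exact p = 0.10). In all, 24 comparisons of this kind were made, over 8 sums and ratios, and after Benjamini-Hochberg adjustment the lowest value is 0.171, so none passes. The ratios between chromosomes given below are among them and were chosen with their values known.

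miR-30d-5p was the most abundant member in every library, at 46.7% to 71.2% of the 5p reads. In P3 the mean levels ran from miR-30d-5p (5539 ± 613 CPM, SD, n = 3) through miR-30a-5p (1005 ± 207) and miR-30c-5p (920 ± 206) to miR-30e-5p (487 ± 137) and miR-30b-5p (202 ± 55.1). The 3p arms followed with miR-30e-3p (192 ± 17.3 CPM), miR-30a-3p (101 ± 16.7) and miR-30c-2-3p (26.2 ± 3.85). The libraries of miR-30a-5p and miR-30c-5p overlapped in P3, as did those of miR-30b-5p and miR-30e-3p, so those neighbours in the order do not differ beyond their spread. Adapter ligation is known to favour some small RNA sequences over others, so this is an order of reads. The 5 members shown above are of 22 or 23 bases, so their counts were not divided by length.

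**Figure D1:**
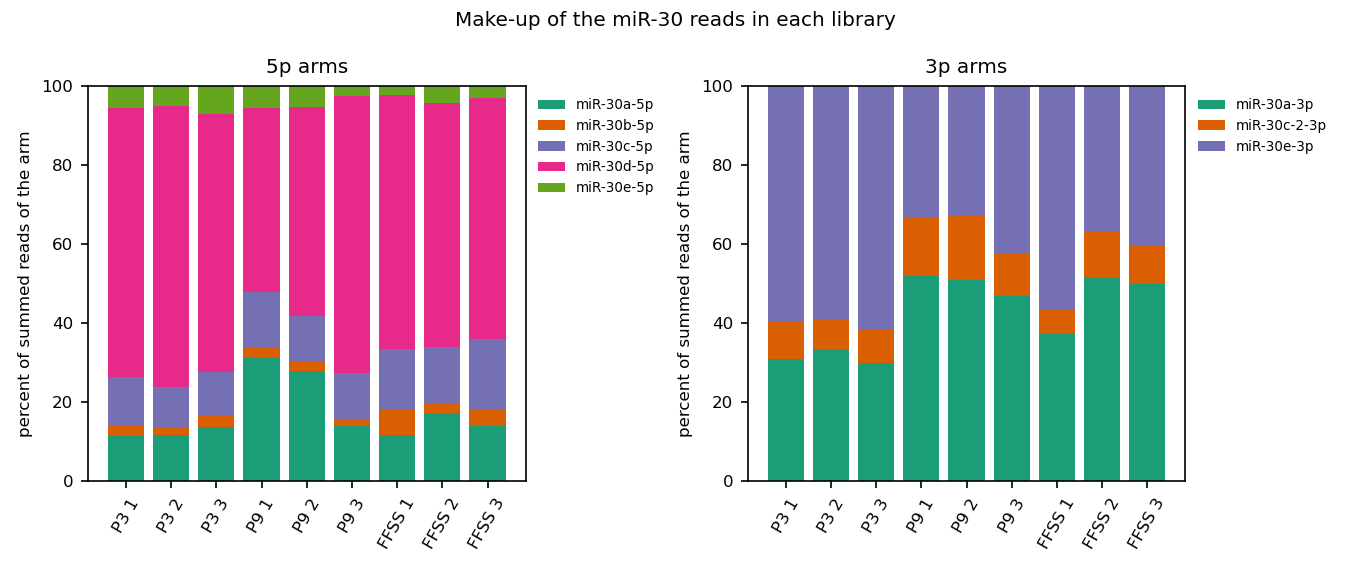
Share of each member in the summed reads of the 5p arms (left) and of the 3p arms (right), in percent, 1 bar per library in the order P3, P9, FFSS. miR-30d-5p is the largest part of every 5p bar, and miR-30e-3p makes up 59.2% to 61.8% of the 3p bars in P3 and 32.7% to 42.4% in P9.

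Changes of single members were tested with edgeR's quasi-likelihood test over all 439 miRNAs that passed a filter on low counts, with calls made where the Benjamini-Hochberg adjusted p was under 0.05. All 8 members passed the filter. Against P3, 2 members rose in FFSS, miR-30a-3p and miR-30c-2-3p, and none fell. Of all miRNAs tested, 6.83% were called higher and 13.7% lower in that comparison (20.5% in all), and an unadjusted p under 0.05 was found for 4 of the 8 members and 36.2% of all miRNAs. In P9 against P3 none of the 8 was called in edgeR, against 7.29% of all miRNAs (3.87% higher and 3.42% lower). The unadjusted p was under 0.05 for 3 of them in edgeR (17.3% of all miRNAs). DESeq2 called 2, with 25 higher and 21 lower over all 439 miRNAs, and limma-voom 0, with 16 and 16. Between P9 and FFSS 1 member, miR-30b-5p, was called, and it was lower in P9 (11.8% of all miRNAs were called lower in P9 and 34.4% in either direction). There the unadjusted p was under 0.05 for 2 members and 46% of all miRNAs. With upper-quartile scaling the split of all calls in that comparison moved from 99 higher and 52 lower to 94 and 77. The median log2 fold change over the 8 members was 0.03 in P9 and 0.57 in FFSS, where the medians over all miRNAs were 0.06 and 0.02. These comparisons share the P3 libraries.

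**Figure D2:**
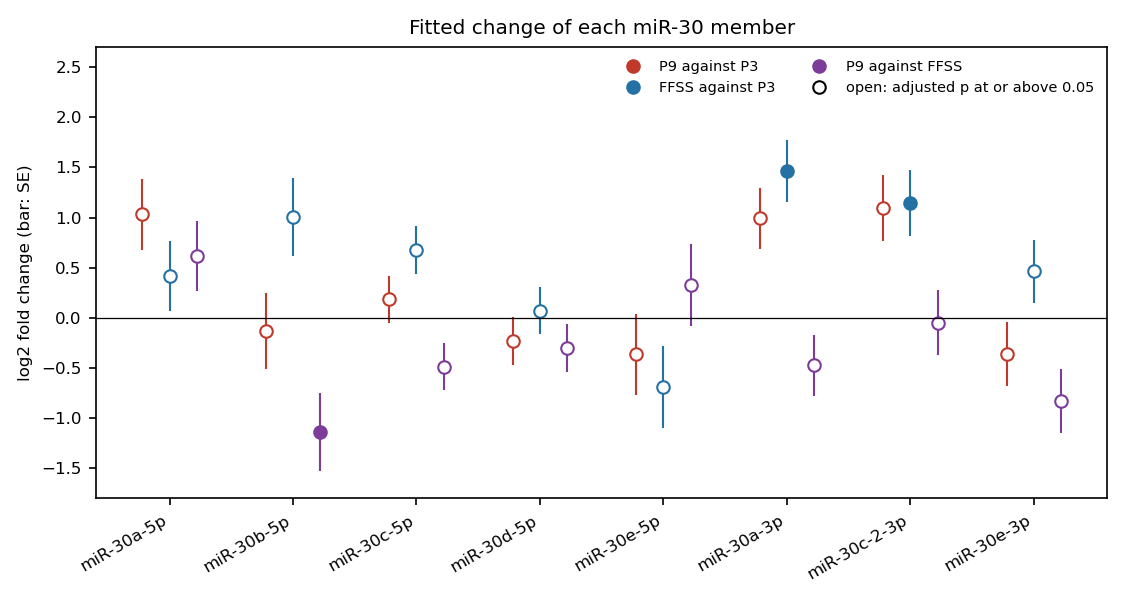
Log2 fold change (vertical axis) of each member with its standard error in the 3 comparisons, from edgeR. Filled points passed an adjusted p under 0.05: miR-30a-3p and miR-30c-2-3p in FFSS against P3, and miR-30b-5p in P9 against FFSS.

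The 3p arms of the chromosome 9 pair were the members called higher in FFSS against P3. miR-30a-3p, whose seed differs from that of the 5p arm, stood at 102, 117 and 83.8 CPM in the P3 libraries, at 198, 174 and 208 CPM in P9, and at 200.4, 351 and 319.8 CPM in FFSS. All 6 libraries of P9 and FFSS lay above the highest P3 library. It rose under shear stress by a log2 fold change of 1.46 (SE 0.31, adjusted p = 0.00907) and stood at 0.99 in P9 (SE 0.31, adjusted p = 0.0707). Without P3 replicate 1 the call in FFSS was lost (1.27, adjusted p = 0.0630), and it held in the other 21 of 22 alternatives (adjusted p = 7.54e-05 to 0.0630 over all).

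miR-30c-2-3p, its neighbour's 3p arm, had 30.4, 25.3 and 22.9 CPM in P3, 55.8, 55.9 and 48.1 CPM in P9, and 33.7, 80.1 and 64.4 CPM in FFSS. Neither group overlapped with P3, though FFSS replicate 1, the shallowest library with 97 reads of it, came close. The log2 fold change was 1.14 in FFSS (SE 0.33, adjusted p = 0.0341) and 1.09 in P9 (SE 0.33, adjusted p = 0.0679). In FFSS the call depended on single libraries, with an adjusted p of 0.124, 0.0851 and 0.116 when P3 replicate 1, 2 or 3 was left out, and it also failed without P9 replicate 1 (0.0614), P9 replicate 2 (0.0598), FFSS replicate 2 (0.73, 0.128) or FFSS replicate 3 (0.0884). It held in 11 of 22 alternatives (adjusted p = 7.60e-04 to 0.128). The P9 value stayed between 1.04 and 1.15 when any 1 library was left out, and passed without P9 replicate 3 (adjusted p = 0.0448), FFSS replicate 1 (0.0209) or FFSS replicate 2 (0.0400; 0.00305 to 0.228 over all alternatives). That of miR-30a-3p in P9 ranged from 0.88 to 1.21 and passed without FFSS replicate 1 (adjusted p = 0.0371; 0.0113 to 0.315 over all alternatives).

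In P9 these 2 were the only members of the 8 whose libraries did not overlap with P3, both higher, as were 11.2% of all miRNAs (25.3% in either direction, 14.1% lower). In FFSS there were 5, all higher, against 18.9% of all miRNAs (41.5% in either direction): both arms above, miR-30b-5p, miR-30c-5p and miR-30e-3p. Between P9 and FFSS there were 4, all lower in P9 (miR-30b-5p, miR-30c-5p, miR-30d-5p and miR-30e-3p), against 19.8% of all miRNAs (42.8% in either direction).

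miR-30a-5p, the guide strand of the same hairpin, did not follow its 3p arm in every library. It stood at 1017, 792 and 1205 CPM in P3, at 2582, 2453 and 981 CPM in P9, and at 1005, 1816 and 1324 CPM in FFSS. P9 replicates 1 and 2 lay above all other libraries, and P9 replicate 3 lay among the P3 libraries. The log2 fold change in P9 was 1.03 (SE 0.35, adjusted p = 0.0985), and without P9 replicate 3 it was 1.34 and passed (adjusted p = 0.00394; 1.24e-04 to 0.331 over all alternatives). In FFSS it was 0.42 (SE 0.35, adjusted p = 0.389). P9 against FFSS gave 0.61 (SE 0.35, adjusted p = 0.186), which passed without P9 replicate 3 (0.99, adjusted p = 0.0101; 0.00787 to 0.378 over all alternatives).

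miR-30c-5p, the member reported to repress Runx2 and Ctgf, comes from both chromosomes. It had 1079, 687 and 994 CPM in P3, 1145, 1023 and 831 CPM in P9, and 1321, 1489 and 1704 CPM in FFSS. FFSS lay above both other groups without overlap, while P3 and P9 overlapped. The change in FFSS, 0.67 (SE 0.24, adjusted p = 0.0600), missed the threshold but passed without P9 replicate 3 (adjusted p = 0.0455) and in DESeq2 (0.0195; 0.0195 to 0.248 over all alternatives). In P9 the value was 0.19 (SE 0.23, adjusted p = 0.772).

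On chromosome 5 the arms of Mir30e ordered the groups differently. miR-30e-5p had 496, 346 and 620 CPM in P3 (619.7 in replicate 3), 458, 467 and 179 CPM in P9, and 193, 445 and 289 CPM in FFSS. All groups overlapped, with log2 fold changes of -0.36 in P9 (SE 0.40, adjusted p = 0.729) and -0.69 in FFSS (SE 0.41, adjusted p = 0.232). miR-30e-3p had 196, 207 and 173 CPM in P3, 127, 111 and 188 CPM in P9, and 305, 251 and 258 CPM in FFSS. FFSS was above both other groups, and P9 replicates 1 and 2 were below P3 while replicate 3 was not. P9 against FFSS gave -0.83 (SE 0.32, adjusted p = 0.0579), which passed without P9 replicate 3 (-1.09, adjusted p = 0.0108; 0.00914 to 0.293 over all alternatives). Against P3 the values were -0.36 in P9 (SE 0.32, adjusted p = 0.610) and 0.46 in FFSS (SE 0.32, adjusted p = 0.292).

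miR-30b-5p and miR-30d-5p come from adjacent genes. miR-30b-5p had 224, 139.7 and 243 CPM in P3, 241, 202 and 95.1 CPM in P9, and 564, 281 and 386 CPM in FFSS. FFSS lay above the other groups, with its shallowest library the highest and P9 replicate 3 the lowest of all. It was lower in P9 than in FFSS by a log2 fold change of -1.14 (SE 0.39, adjusted p = 0.0374). This call was lost in 11 of 22 alternatives, among them those that left out P3 replicate 1 (adjusted p = 0.0846), 2 (0.0582) or 3 (0.0611), P9 replicate 1 (0.0595), P9 replicate 2 (0.0844), P9 replicate 3 (-0.81, 0.0874), FFSS replicate 1 (-0.63, 0.198) or FFSS replicate 3 (0.0567), with a range of 0.0110 to 0.286 over all of them. Against P3 the values were 1.005 in FFSS (SE 0.39, adjusted p = 0.0797), which passed without P9 replicate 3 (adjusted p = 0.0350; 0.0350 to 0.336 over all alternatives), and -0.13 in P9 (SE 0.38, adjusted p = 0.938).

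miR-30d-5p had 6011, 4847 and 5759 CPM in P3, 3878, 4636 and 4891 CPM in P9, and 5550.0, 6524 and 5766 CPM in FFSS. P9 and FFSS did not overlap, and P3 overlapped with both. The log2 fold changes were -0.23 in P9 (SE 0.24, adjusted p = 0.703) and 0.07 in FFSS (SE 0.24, adjusted p = 0.855). The ratio of miR-30b-5p to miR-30d-5p stood at 0.0372, 0.0288 and 0.0423 in P3, at 0.0622, 0.0435 and 0.0195 in P9, and at 0.102, 0.0430 and 0.0669 in FFSS. FFSS lay above P3, 1.86-fold (exact p = 0.10), although FFSS replicate 2 exceeded P3 replicate 3 only narrowly, and P9 overlapped with both.

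**Figure D3:**
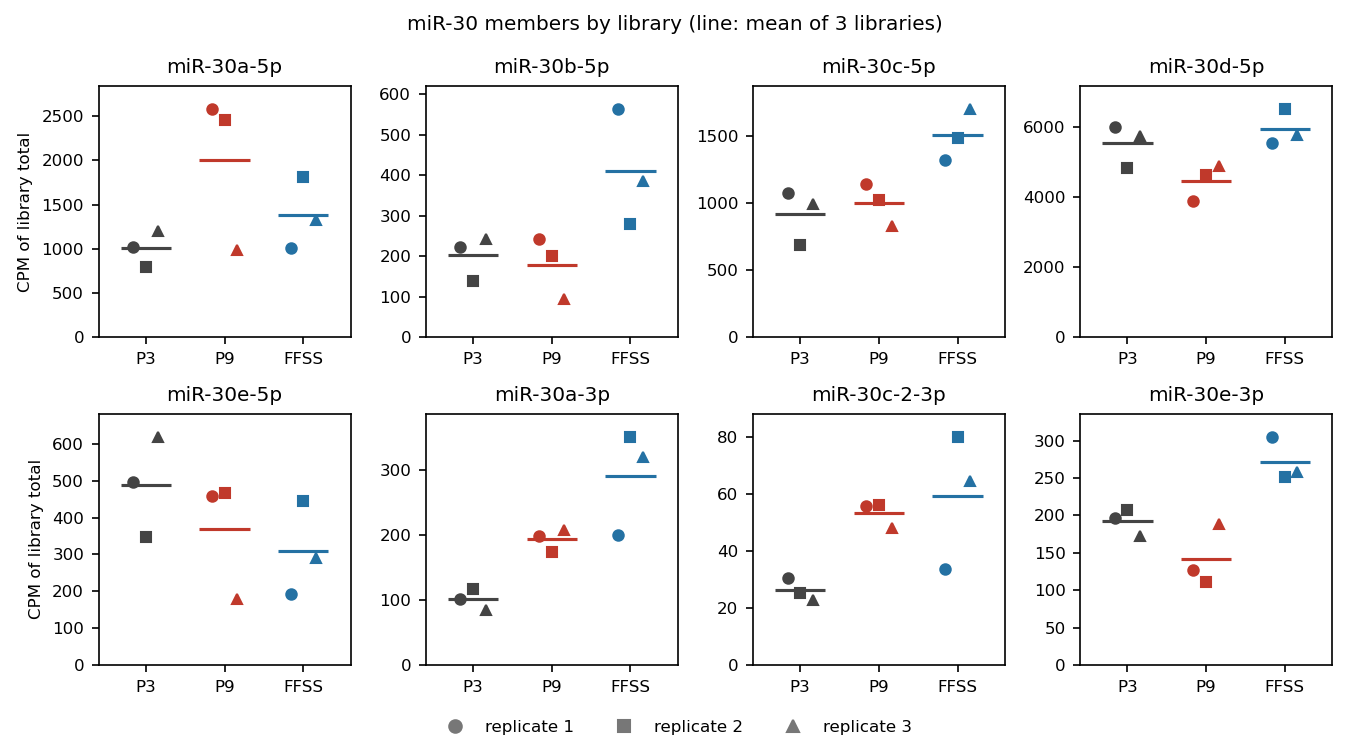
Level of each member in CPM (vertical axis, from 0, a scale per panel) in the 3 libraries of P3, P9 and FFSS; lines are means and marker shapes are replicates. For miR-30a-3p and miR-30c-2-3p all P9 and FFSS points lie above the P3 points, and for miR-30a-5p P9 replicate 3 lies at 981 CPM, apart from 2582 and 2453 CPM.

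In 3 ratios of rows, the chromosome 5 pair was lower against the chromosome 9 pair in P9 than in P3. Reads of miR-30e-5p per read of miR-30a-5p came to 0.487, 0.437 and 0.514 in P3, to 0.177, 0.190 and 0.183 in P9, and to 0.193, 0.245 and 0.219 in FFSS. The ratio is taken within a library and does not depend on scaling between libraries. It was 2.61-fold lower in P9 than in P3 and 2.20-fold lower in FFSS (exact p = 0.10 for each, the smallest possible). P9 replicate 3, in which both levels were well under those of the other P9 libraries, lay between them in this ratio.

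The 3p arms gave the same order of group means. miR-30e-3p per miR-30a-3p stood at 1.92, 1.76 and 2.06 in P3, at 0.640, 0.641 and 0.905 in P9, and at 1.52, 0.715 and 0.806 in FFSS. P3 lay above all 6 other libraries, 2.66-fold above P9 and 1.997-fold above FFSS (exact p = 0.10 for each). P9 and FFSS overlapped.

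The last pair of rows, the 3p arms of the miR-30c hairpins, are paralogs of 1 sequence type that tell the chromosomes apart. miR-30c-1-3p, which is not one of the 8, had 14 to 58 reads in a library and a level of 3.67 to 6.93 CPM. Per read of miR-30c-2-3p it stood at 0.227, 0.158 and 0.222 in P3, at 0.0729, 0.0727 and 0.0763 in P9, and at 0.144, 0.0794 and 0.108 in FFSS. The groups did not overlap: the ratio in P9 was 2.695-fold lower than in P3, and in FFSS 1.86-fold lower (exact p = 0.10 for each). Its fitted change against P3 was -0.35 in P9 (SE 0.34, adjusted p = 0.678) and 0.17 in FFSS (SE 0.35, adjusted p = 0.762). These 3 ratios were chosen with their values known, so their exact p-values only describe these libraries. They use 6 rows, but both arms of Mir30a and of Mir30e are among these. How reads were divided between miR-30a-5p and miR-30e-5p is not known. The Mir30e hairpin also holds a stretch nearly identical to miR-30a-3p, so the same limit applies to the ratio of miR-30e-3p to miR-30a-3p. Leaving out any 1 library kept the P9 difference between 1.33 and 1.60 below P3 on the log2 scale.

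**Figure D4:**
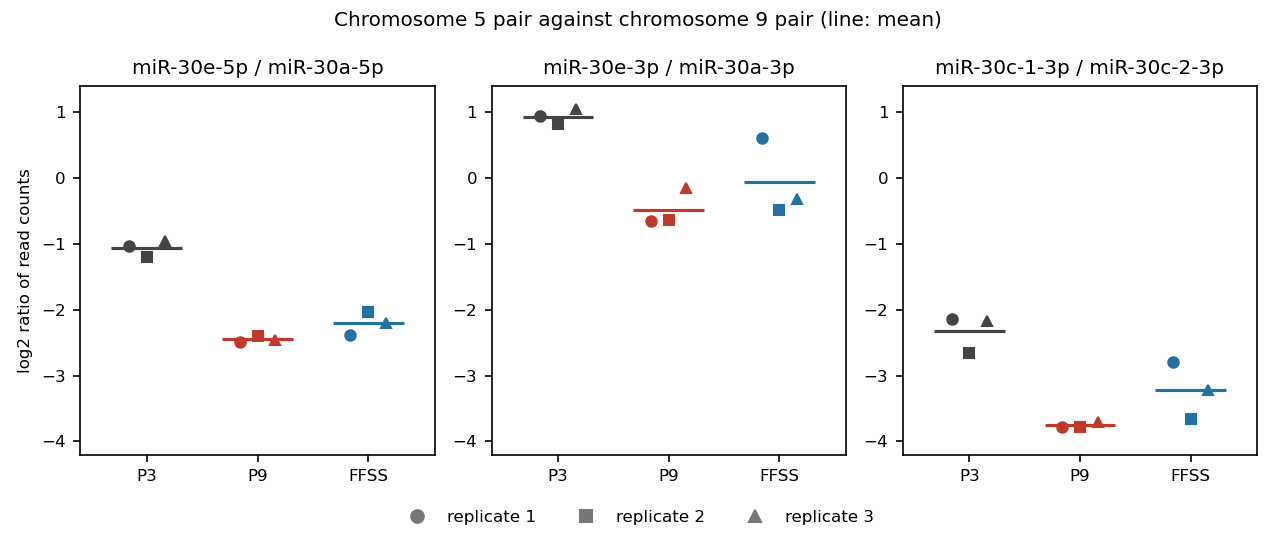
Log2 ratio of read counts (vertical axis) of the chromosome 5 hairpins' arms to the matching arms from chromosome 9, by library in P3, P9 and FFSS; lines are means. In each panel the 3 P3 points lie above all P9 and FFSS points, by 2.61-fold, 2.66-fold and 2.695-fold on average for P9.

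Neighbours within a pair were compared as well. miR-30a-3p per miR-30c-2-3p stood at 3.35, 4.64 and 3.66 in P3 and at 3.55, 3.11 and 4.33 in P9, which overlapped (0.944-fold, exact p = 0.60). In FFSS it stood at 5.95, 4.38 and 4.96 and overlapped with P3 (1.31-fold, exact p = 0.20). P9 lay below FFSS without overlap (0.718-fold, exact p = 0.10). On chromosome 5 miR-30e-5p per miR-30c-5p stood at 0.459, 0.504 and 0.623 in P3, at 0.400, 0.456 and 0.216 in P9, and at 0.146, 0.299 and 0.170 in FFSS. It was 2.69-fold lower in FFSS than in P3 (exact p = 0.10) and 1.54-fold lower in P9 (exact p = 0.10), where the nearest libraries, 0.456 and 0.459, almost touched. The row of miR-30c-5p holds reads of both chromosomes, so this ratio does not compare the chromosome 5 neighbours alone. Of the 3p rows of this pair, miR-30e-3p changed by 0.46 and miR-30c-1-3p by 0.17 in FFSS against P3 (log2, edgeR). In P9 against P3 the values were -0.36 and -0.35. None of these changes was called.

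The arm ratio, 5p reads per 3p read, was compared over 91 hairpins with limma. None of the 3 hairpins with both arms among the members was called in any comparison in limma. Over all hairpins 0% were called for P9 against P3, 4.4% for FFSS against P3 and 12.1% for P9 against FFSS. Of these 3, the unadjusted p was under 0.05 for 1, 1 and 0, where the shares of all hairpins were 3.3%, 31.9% and 27.5%. The 1 in P9 against P3 was Mir30c2. Its 5p row, miR-30c-5p, is shared with Mir30c1, so its value is not the arm ratio of 1 hairpin. For Mir30a the ratio stood at 9.97, 6.76 and 14.4 in P3, at 13.0, 14.1 and 4.72 in P9, and at 5.01, 5.17 and 4.14 in FFSS. FFSS lay below P3 without overlap, and so did P9 replicate 3, while the other P9 libraries were within the range of P3. The difference in FFSS was -1.06 on the log2 scale (SE 0.46, unadjusted p = 0.0415, adjusted p = 0.135), and it passed without P9 replicate 3 (adjusted p = 0.0295; 0.0261 to 0.396 over all alternatives). In P9 it was -0.05 (SE 0.46, adjusted p = 0.989).

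For Mir30e the 3p arm exceeded the 5p arm in 2 libraries. The ratio stood at 2.53, 1.67 and 3.58 in P3, at 3.61, 4.19 and 0.951 in P9, and at 0.634, 1.77 and 1.12 in FFSS. P9 replicate 3 and FFSS replicate 1 were those with more 3p than 5p reads. The difference was -1.19 in FFSS (SE 0.59, unadjusted p = 0.0690, adjusted p = 0.196) and -0.03 in P9 (SE 0.59, adjusted p = 0.989). P9 against FFSS gave 1.17 (SE 0.59, adjusted p = 0.187) for Mir30e and 1.004 (SE 0.46, adjusted p = 0.178) for Mir30a. Without P9 replicate 3 both passed, at 1.85 (adjusted p = 0.00800; 0.00800 to 0.532 over all alternatives) and 1.51 (adjusted p = 0.00811; 0.00752 to 0.482). So did Mir30e in FFSS against P3 (adjusted p = 0.0358, with a range of 0.0358 to 0.453), where the difference stayed at -1.19 and its SE fell to 0.40. Calls over all 91 hairpins were also more numerous in that fit. They were 24 higher and 8 lower in P9 against FFSS, and 10 and 22 in FFSS against P3.

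The ratio of miR-30c-5p to miR-30c-2-3p stood at 35.4, 27.2 and 43.4 in P3, at 20.5, 18.3 and 17.3 in P9, and at 39.2, 18.6 and 26.4 in FFSS. P9 lay below P3 without overlap (-0.89, SE 0.36, unadjusted p = 0.0303, adjusted p = 0.989), while the same 5p row set against miR-30c-1-3p went the other way, at 156 to 196 in P3 and 226 to 281 in P9 (0.53, SE 0.30, adjusted p = 0.989). Of the 3 hairpins, 1 had no overlap in P9 against P3, 1 in FFSS against P3 and 0 in P9 against FFSS, where the shares of all hairpins were 11%, 45.1% and 29.7%. At the median hairpin the FFSS libraries stood lower too. The median over hairpins of the log2 ratio less the P3 mean was -0.29, -0.19 and -0.34 in FFSS replicates 1, 2 and 3. It was -0.16 in P9 replicate 3. In FFSS 56.0%, 59.3% and 64.8% of all hairpins lay below the P3 mean, and in the P3 libraries 60.4%, 52.7% and 36.3%. The part of this shift in the lower ratios of Mir30a and Mir30e was not tested. Mir30d gave almost only its 5p arm, 379 to 1428 reads per 3p read, and miR-30b-3p had 3 reads in all, in FFSS replicates 2 and 3.

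**Figure D5:**
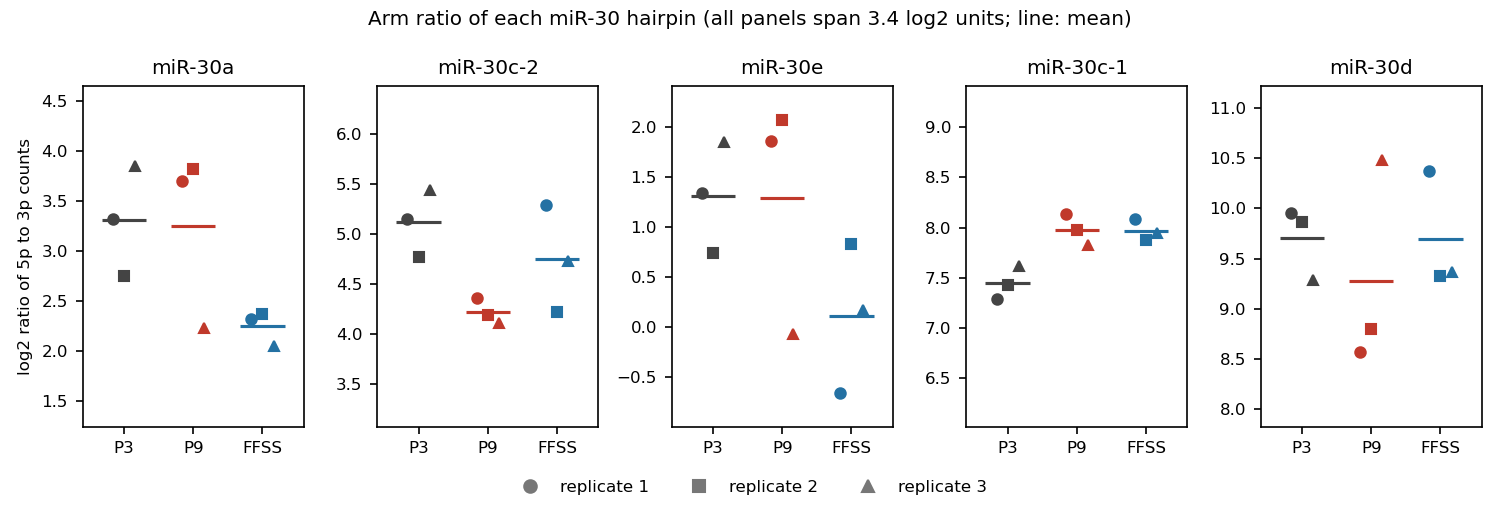
Log2 of 5p reads per 3p read (vertical axis, equal span in each panel) for 5 hairpins by library in P3, P9 and FFSS; lines are means. For miR-30a the FFSS points lie at ratios of 4.14 to 5.17, under the P3 points of 6.76 to 14.4, and P9 replicate 3 lies apart from the other P9 libraries for miR-30a, miR-30e and miR-30d.

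Another miRNA of the table carries the seed of the 5p arms, miR-384-5p, which is encoded on the X chromosome and known from brain.
miR-384-5p (chrX:74490939-74490961, - strand): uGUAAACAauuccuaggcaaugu
It had 3, 3 and 0 reads in the P3 libraries, 29, 20 and 21 in P9, and 0, 5 and 0 in FFSS. All P9 libraries lay above all others. It passed the filter on low counts only through its P9 reads, and the other groups were at or near 0, so these reads are a description and no fold change or test is given. At 2.97 ± 0.724 CPM in P9 (SD, n = 3) it was far under any 5p member.

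Patterns were compared with miRNAs outside the family by the root mean square difference of log2 CPM, centred on each row's mean, over the 9 libraries. The smallest differences were 0.127 for miR-30e-3p with miR-126a-3p, a marker of endothelium, 0.181 for miR-30c-5p with miR-652-3p, and 0.185 for miR-30d-5p with miR-3596b. On the same measure these 3 members varied about their own means by 0.449, 0.318 and 0.238. miR-30d-5p was thus nearly flat, and its small difference says little about a shared pattern. The row of let-7d-5p also lay 0.185 from miR-30d-5p, and its mean levels were close to those of miR-3596b (3102.9 and 3102.8 CPM in P3, 2627.3 and 2627.2 CPM in P9). miR-30b-5p lay 0.198 from miR-25-5p, miR-30e-5p 0.199 from miR-199a-5p, and miR-30a-5p 0.290 from miR-181d-5p. miR-30a-3p and miR-30c-2-3p shared their likest miRNA, miR-490-5p, at 0.311 and 0.263, and lay 0.283 from each other. The group means of miR-25-5p were only 2.53 to 6.34 CPM, and those of miR-490-5p 2.61 to 6.71 CPM. From the 5p arm of its own hairpin miR-30a-3p lay 0.693 away.

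miR-30c belongs to a set of miRNAs reported to target Runx2 in bone cells, and its 10 other members were read as a group. Of these, 9 were in the table and 7 were tested. In P9, 1 of 7 rose, miR-34c-5p, a p53 target, with a mean level of 152 ± 2.71 CPM in P3 libraries against 989 ± 433 CPM in P9 (SD, n = 3), and none fell. Its edgeR value was 2.72 on the log2 scale (SE 0.42, adjusted p = 0.00105). In FFSS 1 of 7 rose, miR-23a-3p, from 3919 ± 1008 to 6881 ± 1278 CPM (0.79, SE 0.24, adjusted p = 0.0392), and none fell. This call failed when P3 replicate 1 (adjusted p = 0.118), 2 (0.188) or 3 (0.131) was left out, and likewise for P9 replicate 1 (0.0778) and 2 (0.0753) and FFSS replicate 1 (0.138) and 3 (0.0936). Between P9 and FFSS, miR-34c-5p was called higher in P9 (2.72, adjusted p = 6.87e-04) and miR-23a-3p lower (-0.96, SE 0.24, adjusted p = 0.00838), the latter not without P9 replicate 2 (adjusted p = 0.0746). Called shares of all miRNAs were 3.87% higher in P9 and 6.83% higher in FFSS against P3, and 22.6% higher and 11.8% lower in P9 against FFSS. The 2 of 7 called in the last comparison are thus near the 34.4% of all miRNAs called there.

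Some markers of other cell types were also higher in the FFSS libraries. Of 19 such markers (blood, muscle, liver, endothelium, epithelium, nervous system), 9 had FFSS levels above all P3 libraries and none below. Over all miRNAs tested, 18.9% lay above P3 without overlap and 22.6% below. The 19 were not filtered on counts, and miR-144-3p, which failed the filter, is among the 9. In FFSS replicates 1, 2 and 3, 15, 10 and 15 of the 19 exceeded every P3 library. Of the markers tested, edgeR called only miR-200b-3p (adjusted p = 0.0399) and miR-9a-5p (adjusted p = 0.0464), both higher in FFSS. The summed level was higher without overlap for blood (69.6 to 151 CPM in P3, 154 to 573 CPM in FFSS), muscle (133 to 145, 179.9 to 512), liver (9.87 to 11.7, 15.5 to 51.4), endothelium (386 to 406, 556 to 695) and epithelium (15.8 to 20.1, 21.9 to 48.6). For the nervous system it overlapped (534 to 1168, 565 to 1372). In those libraries 2, 3 and 0 of the markers lay below every P3 library. In P9 replicates 1, 2 and 3, 7, 5 and 10 markers exceeded every P3 library and 4, 5 and 6 lay below every one. Without overlap, 1 of the 19 was higher in P9 than in P3 (11.2% of all miRNAs tested) and 0 lower. Against FFSS, 5 were lower in P9 (19.8% of all miRNAs tested) and 0 higher. The P9 sums overlapped with P3: 66.2 to 299 CPM for blood, 140.1 to 512 CPM for muscle, 3.43 to 22.9 CPM for liver, 275 to 490.5 CPM for endothelium, 17.2 to 20.9 CPM for epithelium and 617 to 1546 CPM for the nervous system. Among markers with 0 reads in some library, miR-144-3p of blood had 0 reads in P3 and 5 in FFSS. The others were miR-144-5p (8 and 2), miR-223-3p (7 and 2), miR-141-3p (14 and 13), miR-429 (23 and 21) and miR-124-3p (6 and 10). These reads are not scaled to depth, and every FFSS library was shallower than every P3 library. The part of the 19 markers in the higher 3p arms was not tested.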

How the data were processed

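Small RNA libraries of 3 groups (P3, P9, FFSS; 3 libraries each) were analysed from 1 deposited table. It gives a read count per miRNA and library, per the file headers, and the deposited TPM, which equalled the CPM computed from the count (largest difference 4.85e-05). The submitters' processing notes name Bowtie and Rnor_6.0; counting program and miRNA annotation were not given in the sources used here. Depth was 2878910 to 8862560 reads.

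Counts were tested with edgeR 4.0.16 (quasi-likelihood, robust, TMM, filterByExpr, 1 model of 9 libraries) in R 4.3.3, with Benjamini-Hochberg adjustment over 439 miRNAs, calling at 0.05. SE is the log2 fold change divided by the root of the F statistic. Arm ratios, log2 of counts with 0.5 added, were tested with limma 3.58.1 over the 91 hairpins whose arms both averaged 20 counts or more. Summed levels and paralog ratios were compared by exact permutation tests. The edgeR and limma steps were tested on simulated data. Named were the members, rows sharing their seed, for each member the 3 miRNAs with the likest pattern (the closest is given), and a Runx2 set. Members and lists were chosen with earlier results of these data known. Alternatives were other scalings (DESeq2 1.42.0 size factors, upper quartile, library size, and TMM factors computed after removing the 10 top miRNAs), filters, DESeq2, limma-voom, log2(TPM + 1) and log2(TPM + 10), 2-group fits, a replicate block and leaving out libraries.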

Additional observations from a re-analysis of the deposited data

How the results depend on the processing

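Calls were few and near the threshold, so their number depended on the fit. In the main fits all 9 libraries share 1 estimate of the spread, so a library outside a comparison can change its calls. Leaving out 1 library gave 0 to 2 called members in P9 against P3, 0 to 4 in FFSS against P3 and 0 to 2 in P9 against FFSS, and 0 to 2 called arm ratios in FFSS against P3 and in P9 against FFSS. The upper ends were reached without P9 replicate 3, where calls over all 451 miRNAs were more numerous too. They were 26 higher and 25 lower in P9 against P3, 53 and 94 in FFSS against P3, and 123 and 80 in P9 against FFSS. With P9 replicate 3 and FFSS replicate 1 left out together, an alternative added after seeing the data, 3, 3 and 2 members and 0, 1 and 2 arm ratios were called. Calls over all 444 miRNAs were also more numerous there, at 48 higher and 41 lower in P9 against P3, 68 and 107 in FFSS against P3, and 137 and 84 in P9 against FFSS. Over 92 hairpins, 0 arm ratios were called in P9 against P3, 10 higher and 22 lower in FFSS against P3, and 24 and 9 in P9 against FFSS. For P9 against P3, no filter gave 1 called member, a mean of at least 50 counts 2, DESeq2 2 and a fit of the 2 groups 1. In that order, calls over all miRNAs were 22 higher and 19 lower of 726, 13 and 11 of 299, 25 and 21 of 439, and 17 and 17 of 425. For FFSS against P3, no filter, log2(TPM + 1) and log2(TPM + 10) gave 1 each, and DESeq2 and the 2-group fit 4 each. Over all miRNAs, no filter called 15 higher and 76 lower of 726, log2(TPM + 1) 22 and 53 of 439, and log2(TPM + 10) 23 and 46. DESeq2 called 43 and 75 of 439, and the 2-group fit 51 and 73 of 415. The 2-group fit also called 1 member arm ratio, with 6 higher and 16 lower over all 90 hairpins. For P9 against FFSS, upper-quartile factors, library size alone, DESeq2, limma-voom, log2(TPM + 1) and log2(TPM + 10) gave 2 each and the 2-group fit 0. Over all 439 miRNAs the fits with 2 called 92 to 105 higher and 62 to 81 lower, and the 2-group fit called 79 and 28 of 413. The cause of these differences was not tested. With the replicate block 1 member was called in FFSS against P3 (9 higher and 42 lower over all 439 miRNAs) and 0 in P9 against FFSS (90 and 35). Same-numbered libraries did not deviate together (correlations of -0.48 to 0.12), so the labels' numbers were not taken as pairing.

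Signs turned for values near 0. With no filter miR-30d-5p in FFSS against P3 was -0.060 and miR-30c-2-3p in P9 against FFSS 0.075 (0.0027 with the replicate block). Leaving out 1 library took miR-30b-5p in P9 against P3 from -0.33 to 0.15, miR-30d-5p in FFSS against P3 from -0.084 to 0.16 and miR-30c-2-3p in P9 against FFSS from -0.17 to 0.36. For arm ratios in P9 against P3 the range was -0.34 to 0.45 for Mir30a and -0.42 to 0.65 for Mir30e. For Mir30d in FFSS against P3 it was -0.36 to 0.15, and for Mir30c1 in P9 against FFSS -0.060 to 0.097. With both libraries left out, miR-30b-5p in P9 against P3 was 0.17, miR-30d-5p in FFSS against P3 -0.02, and the arm ratios of Mir30a and Mir30e in P9 against P3 0.45 and 0.65. The sums and paralog ratios moved by less than the spread between replicates in all their alternatives. With 3 libraries a group, leaving out 1 cannot move a difference by more than this spread, whatever the values. Only the sums from TMM-scaled counts could have done so. At 14 to 58 reads, counting error is widest for miR-30c-1-3p.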
